A study of Mus musculus with 5 samples.

Results

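Interferon-induced genes were followed as a set of 42 named symbols, out of 27998 genes that all 5 tables hold. The symbols were listed with earlier results of these data known, so counts over the set are descriptive. All 42 were present in the tables. They fall into 5 transcription factors, 7 guanylate-binding proteins (GBPs), 7 immunity-related GTPases (IRGs), 9 antiviral effectors, 5 membrane proteins and 9 regulators. The cells came from the spinal cord of Col1a1GFP mice on a C57/BL6 background, in which green fluorescent protein reports the promoter of the collagen gene Col1a1, a mark of fibroblasts. GFP-positive cells were sorted and made into droplet libraries that count unique molecular identifiers (UMIs), 1 per captured transcript. There were 3 libraries from healthy animals (Healthy 1, Healthy 2 and Healthy 3) and 2 from animals with EAE (EAE 1 and EAE 2). EAE, or experimental autoimmune encephalomyelitis, is a model of multiple sclerosis: T cells that recognise myelin enter the spinal cord and inflame it. Every animal carried the reporter, so the sort limits each library to cells in which it is active and to cells that passed the gate beside them. The sources used here do not give how EAE was induced, its stage, the animals' age or the number pooled per library, so p-values measure only the spread between these libraries.

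Interferons are secreted signals that bind receptors on nearly every cell and activate Janus kinases, which in turn activate STAT proteins. Type I interferons act mainly through a complex that contains Stat2 and Irf9 and binds the interferon-stimulated response element (ISRE). Interferon gamma, made by T cells and natural killer cells, acts mainly through the gamma-activated site (GAS). Most of the 42 genes answer to either signal, while the GBPs, the IRGs and Irf1 are textbook targets of interferon gamma and the Ifit genes, Isg15 and Usp18 are textbook targets of type I interferon. Fibroblasts of the meninges and of blood vessels line the surfaces through which leukocytes enter the inflamed cord.

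Cells were assigned to classes by the UMIs of marker genes, none of them an interferon-induced gene. After barcodes found in several of Healthy 1, Healthy 2 and EAE 1 were counted once, in the library with their highest UMI total, 4970 of 7205 barcodes stayed, and 4678 passed the filter on genes and mitochondrial UMIs. Of the barcodes in Healthy 1, Healthy 2 and EAE 1, 1552, 996 and 1239 also occurred in another library, and of those set aside 1549 were in Healthy 1 and 684 in Healthy 2. The fibroblast gate held 3993 cells, from 321 to 562 per Healthy library and 1631 and 1115 in EAE 1 and EAE 2, with a median of 1302 to 4407 UMIs per cell in Healthy and 4691 and 5272 in EAE. Levels are given as UMIs per 1000000 UMIs of the gated cells of a library (CPM). Collagen and other fibroblast markers summed to 29012 to 47218 CPM there, against 90.3 in the myeloid-gated cells of EAE 1. Pericytes (3 to 25 cells per library) and smooth muscle cells (5 to 36) were few. Immune cells were almost confined to EAE, with 87 and 7 myeloid and 34 and 18 lymphocyte cells in EAE 1 and EAE 2, against 2 myeloid and no lymphocyte cells in Healthy. The tables of Healthy 1, Healthy 2 and EAE 1 (set 1) and those of Healthy 3 and EAE 2 (set 2, whose labels carry a lane) list different numbers of genes, so set was a term in each comparison of EAE with Healthy.

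In fibroblast-gated cells with each barcode counted once, the 42 genes together took a larger share of UMIs in both EAE libraries than in any Healthy library. Their share was 0.417%, 0.403% and 0.306% of UMIs in Healthy 1 to 3, and 0.919% in EAE 1 and 0.519% in EAE 2. The exact 95% binomial intervals, which cover counting error only, were 0.912% to 0.925% in EAE 1 and 0.514% to 0.525% in EAE 2, and none overlapped a Healthy interval. The EAE libraries differed from each other by more than EAE 2 differed from Healthy 1. With all barcodes as deposited, the share was 0.634% in Healthy 1 and 0.576% in Healthy 2, so that EAE 2 (0.519%) lay below both. Without Ifitm1, Ifitm2, Ifitm3 and Ly6e, which are abundant in Healthy too, the share was 0.0966%, 0.0827% and 0.0579% in Healthy and 0.245% and 0.115% in EAE. No test was made on this summed share, because the genes were listed with earlier results of these data known.

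**Figure D1:**
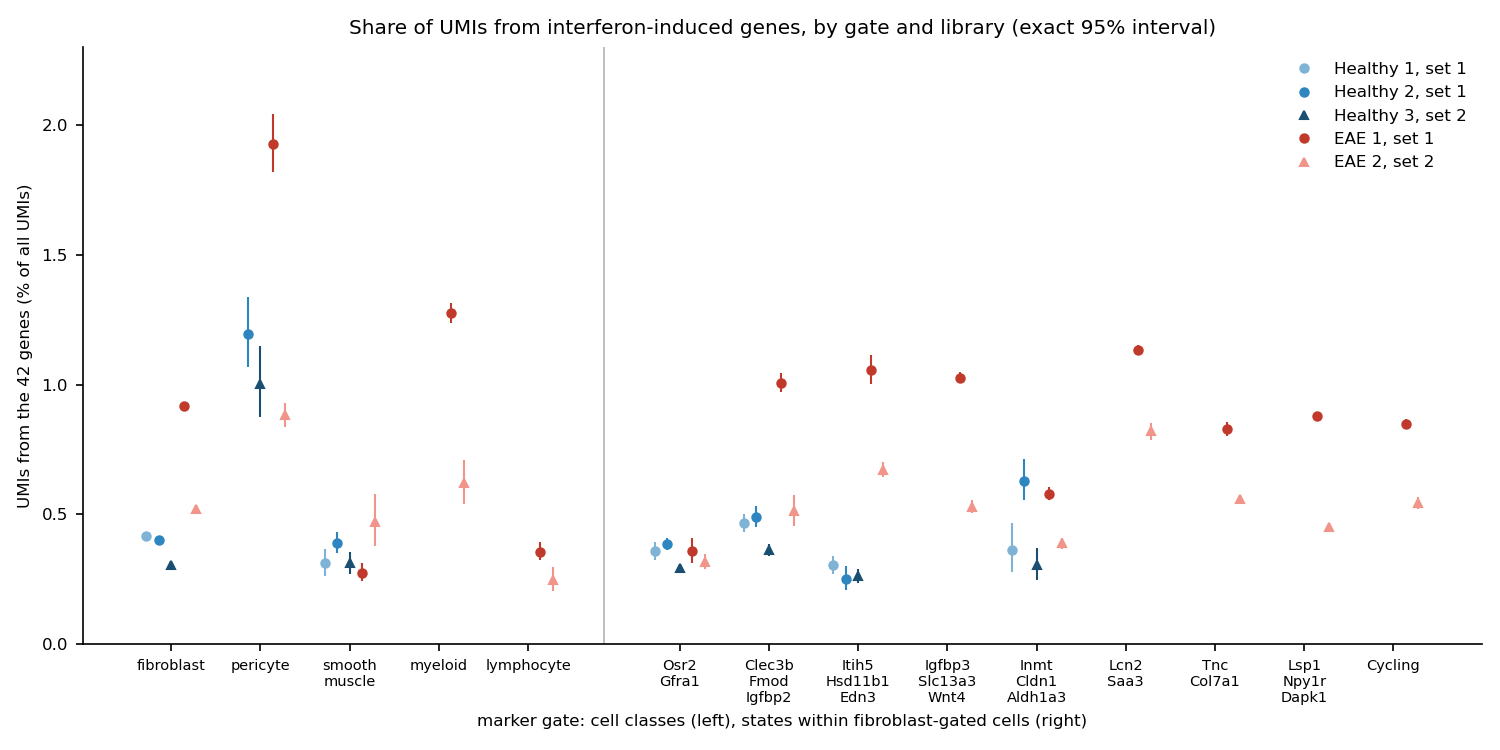
Share of all UMIs (%, vertical axis) that came from the 42 genes in each marker gate (horizontal axis), 1 point per library with at least 5 cells, with the exact 95% interval as a bar; circles are set 1 and triangles set 2. In fibroblasts both EAE points (0.919% and 0.519%) lie above the Healthy points, while in the Osr2 Gfra1 state all 5 libraries lie between 0.292% and 0.386%.

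The same order held cell by cell at equal depth. When each fibroblast-gated cell was thinned to 1000 UMIs, and shallower cells (205 in Healthy 1, 16 in Healthy 2, 6 in Healthy 3, 0 in EAE 1 and 43 in EAE 2) were left out, the median cell held 3 UMIs of the 42 genes in each Healthy library, 8 in EAE 1 and 4 in EAE 2. Cells with at least 10 such UMIs made up 5.60%, 4.60% and 0.952% of cells in Healthy 1 to 3. That share was 39.6% in EAE 1 and 10.4% in EAE 2. Cells with none made up 0.920% in EAE 1 and 3.54% in EAE 2, against 4.31% to 8.89% in Healthy. Ifitm2 and Ifitm3 were each seen in 62.9% to 72.7% of thinned Healthy cells. In EAE 1 and EAE 2, Ifitm1 was seen in 71.1% and 51.0% of thinned cells, Iigp1 in 23.5% and 8.86%, and Zbp1 in 16.7% and 5.13%. The share of cells with none thus does not show how many cells took part in the higher EAE levels. Free RNA in the droplets can add UMIs to any cell, and its part in these counts was not tested. Lymphocyte-gated cells of EAE 1 and EAE 2, thinned alike, had medians of 4 and 2. Those medians do not measure free RNA alone. Ly6e was at 871 and 997 CPM in the lymphocyte-gated cells, above the 411 and 232 of fibroblast-gated cells.

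**Figure D2:**
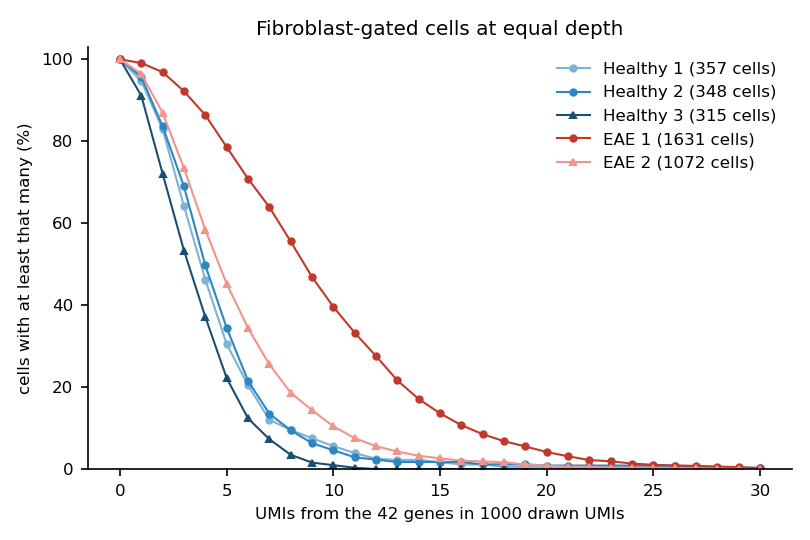
Percent of fibroblast-gated cells (vertical axis) with at least a given number of UMIs from the 42 genes among 1000 drawn UMIs (horizontal axis), 1 line per library. At 10 UMIs the line of EAE 1 stands at 39.6% and that of EAE 2 at 10.4%, above the Healthy lines at 0.952% to 5.60%.

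Gene by gene, 21 of the 34 members with enough UMIs to be tested rose in EAE fibroblasts, and none fell (edgeR's quasi-likelihood test on UMI sums per library, adjusted p under 0.05 over all genes tested). Of all 9753 genes tested, 10.5% rose and 11.1% fell by the same rule. The states that make up the fibroblast gate differed between the groups: the Lcn2 Saa3 state had 4, 1 and 0 cells in Healthy and 224 and 45 in EAE, and the Lsp1 Npy1r Dapk1 state 1, 0 and 0 against 206 and 165. The Osr2 Gfra1 state had 57, 67 and 88 cells against 20 and 41. The part of this shift in the summed change was not tested, and comparisons inside 3 states are given further on. The median log2 fold change was 1.17 over the 34 members and 0.00 over all genes. The 8 members outside the test had too few UMIs: Gbp6, Gbp9, Tgtp1, Ifit2, Ifi44, Oas1a, Mx1 and Cd274. Ifi44, for one, had 1, 0 and 1 UMIs in Healthy and 77 and 26 in EAE, and Gbp9 had 3, 4 and 2 in Healthy and 83 and 47 in EAE. Normalised levels of both EAE libraries lay above those of all Healthy libraries for 13 of the 34 members, where 23.3% of all genes did so, and below them for 1 (Isg20), where 22.5% did. Of the 34 members tested, 29 were higher in EAE within set 1 and 28 within set 2. The median difference of the 34 was 1.26 on the log2 scale in set 1 and 0.85 in set 2. All 21 called members were higher within each set, by medians of 1.75 and 1.48. They were called on these same libraries, so their values within sets are no separate test. Scaled by library totals, 23 members rose; that scaling moved the median of all genes up by 0.11 (log2) and the share of higher calls among all calls from 48.6% to 59.7%. Without EAE 1 only 8 of the 21 kept their call, without the term for set 7, and with all barcodes as deposited 13, although all 21 kept a positive sign in those fits. The 13 lost without EAE 1 included all 4 GBPs, Irgm1, Irgm2, Igtp and Ifitm3. The 8 lost with barcodes as deposited were Ifi47, Ifit1, Ifitm1, Ifitm3, Iigp1, Irf7, Irf8 and Zbp1, where the log2 fold change of Zbp1 was 2.03 and that of Iigp1 2.01. With each cell thinned to 1000 UMIs, 12 of the 21 could be tested and 10 passed.

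**Figure D3:**
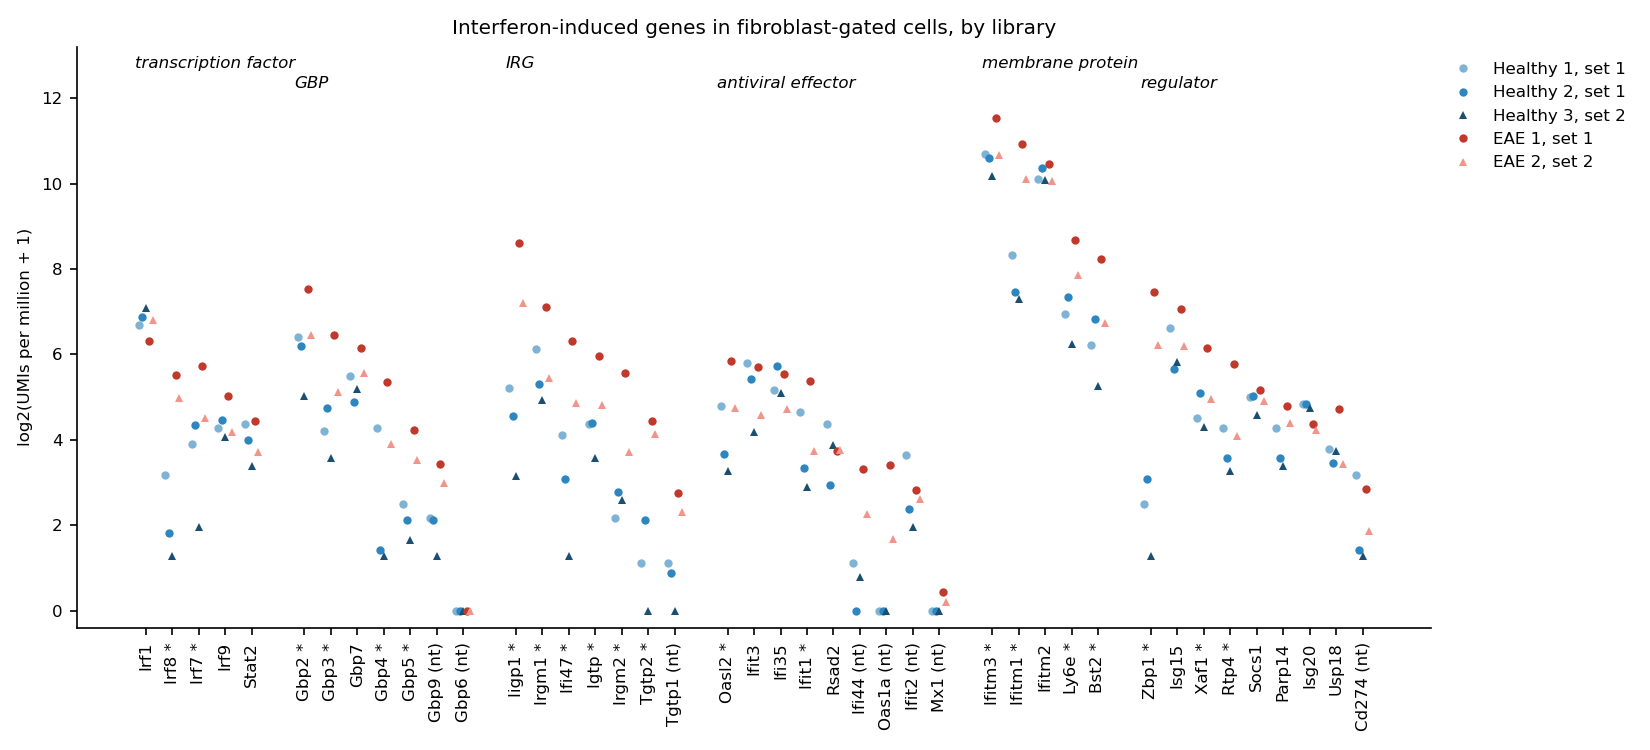
Level of each of the 42 genes in fibroblast-gated cells, as log2(CPM + 1) on the vertical axis, 1 point per library, genes grouped by role and ordered by their mean in EAE; an asterisk marks an adjusted p under 0.05 and (nt) a gene outside the test. Red (EAE) points lie above all blue (Healthy) points for Zbp1 and Iigp1, the tested genes with the largest changes (4.87 and 3.79 on the log2 scale). Irf1, Irgm1, Ifit3, Ifi35 and Ifitm2 show overlapping points.

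Among the transcription factors, Irf8 and Irf7 rose and Irf1, Irf9 and Stat2 did not pass the test. Irf8, which drives macrophage development and is induced by interferon gamma, was at 8.09, 2.51 and 1.44 CPM in Healthy 1 to 3 and at 44.9 and 30.6 in EAE 1 and EAE 2, with no overlap (log2 fold change 3.39 ± 0.40 SE, adjusted p = 0.000165). Because Irf8 is also a myeloid gene, its UMIs were set against those of 10 myeloid markers in the same cells. In the fibroblast gate there were 383 Irf8 and 225 myeloid marker UMIs in EAE 1 (a ratio of 1.70) and 208 and 212 in EAE 2 (0.981). In the myeloid gate the ratio was 0.0493 and 0.0142. The same markers set that gate, so a low ratio there is in part fixed by the gating. The source of the Irf8 UMIs was not tested by these ratios. Lymphocyte-gated cells also held Irf8, at 371 CPM in EAE 1 and 20.8 in EAE 2. In fibroblast-gated cells with no UMI of any immune marker, Irf8 rose as well, as did 19 others of the 21. The part of RNA from immune cells in these Irf8 counts was not tested beyond this fit. Irf7, which amplifies type I interferon production, was at 13.9, 19.2 and 2.88 CPM in Healthy and at 52.0 and 21.6 in EAE (1.80 ± 0.32, adjusted p = 0.00202). EAE 2 was close to Healthy 2 for this gene. Irf1, the early target of interferon gamma, was at 102, 116 and 135 CPM in Healthy and at 78.0 and 111 in EAE, where the groups overlapped (-0.50 ± 0.20, adjusted p = 0.0954). Without Healthy 1 it was called lower, the 1 member that fell in that fit, beside 27 that rose.

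The GBPs, large GTPases that bind and break open membranes around intracellular microbes, rose in 4 of 5 tested. Gbp2 was at 83.2, 71.8 and 31.7 CPM in Healthy and at 184 and 86.1 in EAE (1.22 ± 0.20, adjusted p = 0.00129). Gbp3 was at 17.3, 25.9 and 10.8 in Healthy and at 86.7 and 33.7 in EAE (1.75 ± 0.25, adjusted p = 0.00054). For both genes EAE 1 stood far above the rest. EAE 2 was close to the highest Healthy library for Gbp2, whose normalised levels overlapped. Gbp4 and Gbp5 also rose by edgeR's test (adjusted p = 0.0341 and 0.00369). For Gbp4, EAE 2 (13.4 normalised CPM) lay below Healthy 1 (19.1), while for Gbp5 the groups did not overlap. Gbp7, at 43.9, 28.4 and 35.3 in Healthy and 70.4 and 46.7 in EAE, did not pass (0.64 ± 0.24, adjusted p = 0.0801). Gbp6 had no UMI in any of the 5 libraries, and 77.8% of the 50-base words in its last 500 bases also occur in another annotated gene, so reads from it may not have been counted. Gbp2, Gbp3, Gbp5 and Gbp7 lie side by side on chromosome 3 (chr3:142493978-142638008, mm10) and Gbp4, Gbp6 and Gbp9 on chromosome 5, where the annotated spans of Gbp4 and Gbp9 overlap.

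The IRGs, GTPases that mark and rupture vacuoles holding parasites and bacteria, rose in all 6 members tested, with the highest median change of the role groups (2.72 on the log2 scale). Iigp1, an effector of this family, went from 35.8, 22.5 and 7.93 CPM in Healthy to 388 and 146 in EAE (3.79 ± 0.25, adjusted p = 8.16e-06). The groups did not overlap, and EAE 1 stood well above EAE 2. Ifi47 was at 16.2, 7.52 and 1.44 in Healthy and at 78.9 and 28.0 in EAE (2.95 ± 0.34, adjusted p = 0.000135). Irgm1, a regulatory member that protects the cell's own membranes, was at 69.3, 38.4 and 29.5 in Healthy and at 136 and 42.4 in EAE, so that EAE 2 lay within the Healthy range (0.94 ± 0.27, adjusted p = 0.0305). Within set 2 alone its difference was 0.43 on the log2 scale. Irgm2 and Igtp rose by 2.49 ± 0.42 and 1.42 ± 0.24. Tgtp2 rose by 3.61 ± 0.57, and since every 50-base word of its 3′ end also occurs in Tgtp1, the split of reads between this pair is uncertain. Irgm1, Tgtp1, Tgtp2 and Ifi47 lie within chr11:48861968-49096974, and Igtp and Irgm2 within chr11:58199556-58222782, where their annotated spans overlap (mm10).

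Promoter sequence was read for the members with an entry in the RefSeq promoter table (build GRCm38.p6, the same coordinates as mm10; 250 bases before to 50 after each gene's start). An entry was found for 32 members; Gbp4, Gbp6, Gbp9, Iigp1, Ly6e, Mx1, Parp14, Rtp4, Usp18 and Zbp1 had none. The core of the ISRE was searched as GAAA, any 2 bases and again GAAA (adjacent copies can share 4 bases), and the GAS as TTCNNNGAA, both on either strand. The ISRE core was present in 19 of the 32 members (59.4%), against 3.99% of all 27025 genes in the table, and the GAS in 14 (43.8%) against 9.55%. Igtp, Irgm2, Tgtp1 and Tgtp2 shared one arrangement, a GAS whose first base lies 11 bases before that of an ISRE core, which 5 genes of the whole table hold (0.0185%). The stretches around both motifs of these 4 IRGs are shown because Igtp, Irgm2 and Tgtp2 all rose in EAE fibroblasts; capitals mark the motif matches, and each sequence is read 5′ to 3′ on the gene's strand. They are at chr11:58199481-58199555 on the plus strand, chr11:58214872-58214952 on the plus strand, chr11:48992284-48992364 on the minus strand and chr11:49064243-49064323 on the minus strand, in that order.
Igtp: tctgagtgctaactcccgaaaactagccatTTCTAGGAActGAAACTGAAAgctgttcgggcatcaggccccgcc
Irgm2: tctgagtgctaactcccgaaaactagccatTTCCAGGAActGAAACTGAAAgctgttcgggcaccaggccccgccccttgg
Tgtp1: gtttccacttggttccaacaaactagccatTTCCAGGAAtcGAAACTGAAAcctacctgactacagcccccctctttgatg
Tgtp2: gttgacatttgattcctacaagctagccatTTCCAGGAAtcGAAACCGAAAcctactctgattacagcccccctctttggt
Both motifs were found in 9 of the 32 members, these 4 IRGs and Gbp5, Gbp7, Oas1a, Ifitm3 and Bst2. Ifit1, Ifit3 and Isg15 are shown because they held copies of the ISRE core and no GAS, and Irf8 and Irf1 because they held a GAS and no ISRE core. The ISRE core is read on the other strand in Ifit1 and Ifit3, with TTTC in place of GAAA, and the copies in Isg15 overlap. The stretches are at chr19:34640755-34640843 on the plus strand, chr19:34583343-34583446 on the plus strand, chr4:156200845-156200926 on the minus strand, chr8:120736157-120736243 on the plus strand and chr11:53769894-53769962 on the plus strand.
Ifit1: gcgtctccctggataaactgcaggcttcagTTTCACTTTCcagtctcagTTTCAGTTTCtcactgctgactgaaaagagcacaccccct
Ifit3: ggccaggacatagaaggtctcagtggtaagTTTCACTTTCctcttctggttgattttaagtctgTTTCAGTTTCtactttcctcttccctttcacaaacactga
Isg15: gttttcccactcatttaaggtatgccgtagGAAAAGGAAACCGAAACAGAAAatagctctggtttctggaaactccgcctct
Irf8: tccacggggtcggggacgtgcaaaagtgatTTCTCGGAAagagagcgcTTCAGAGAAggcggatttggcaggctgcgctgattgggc
Irf1: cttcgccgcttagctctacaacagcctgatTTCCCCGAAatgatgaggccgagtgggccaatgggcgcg
Not shown, Gbp2, Gbp3 and Irgm1 also held the ISRE core and no GAS, and Ifit2, Isg20 and Ifi35 held a GAS and no ISRE core. The motifs thus did not divide the members by the textbook targets given above. A match is a description of these letters and shows no binding. Genes on either side of the test held the ISRE core. All 4 GBPs with an entry held it, of which Gbp2, Gbp3 and Gbp5 passed and Gbp7 did not. Stat2, Socs1, Rsad2 and Ifitm2 also held it, and none of them passed.

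The antiviral effectors were mixed, and 2 of the 5 tested rose. Oasl2, of the oligoadenylate synthetase family, was at 26.6, 11.7 and 8.65 CPM in Healthy and at 56.1 and 25.9 in EAE (1.50 ± 0.30, adjusted p = 0.00437). EAE 2 lay just under Healthy 1. Ifit1, which binds foreign RNA ends, rose by 1.12 ± 0.35 (edgeR's test, adjusted p = 0.0401) and lost its call without Healthy 2 and in several other fits. For Ifit1, EAE 2 (11.9 normalised CPM) lay below Healthy 1 (25.1). Ifit3, its partner, was at 54.3, 41.8 and 17.3 in Healthy and at 50.8 and 23.1 in EAE, with both EAE values inside the Healthy range (0.10 ± 0.23, adjusted p = 0.809). Ifi35 was at 34.7, 51.8 and 33.1 in Healthy and at 45.7 and 25.2 in EAE (-0.23 ± 0.24, adjusted p = 0.558). Of the members outside the test, Oas1a had no UMI in Healthy fibroblasts and 97 in EAE, at least 7.28-fold higher when 3 UMIs over the Healthy libraries are taken as the limit of a count of 0. Oas1a shares 56.1% of its 3′ words with other annotated genes, Oas1g foremost. Mx1 had 4 UMIs in all, under that limit.

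The membrane proteins carried most of the UMIs of the set and rose in 4 of 5. Ifitm1, which blocks the fusion of viruses with the cell, was at 321, 176 and 156 CPM in Healthy and at 1954 and 1101 in EAE (2.81 ± 0.23, adjusted p = 2.98e-05). The groups did not overlap. Ifitm3, its neighbour on chromosome 7, was at 1660, 1553 and 1156 in Healthy and at 2959 and 1638 in EAE, so that EAE 2 lay inside the Healthy range (0.62 ± 0.16, adjusted p = 0.0156). Its call was lost without Healthy 3, without EAE 1 or without EAE 2. Ifitm2 was at 1098, 1310 and 1091 in Healthy and at 1412 and 1066 in EAE (0.01 ± 0.17, adjusted p = 0.97), and changed sign in some fits. Of the 50-base words at the 3′ ends of Ifitm1, Ifitm2 and Ifitm3, 11.8%, 41.9% and 14.0% also occur in other annotated genes. Bst2 (tetherin, which holds budding viruses at the surface) and Ly6e rose by 1.50 ± 0.22 and 1.47 ± 0.21. For Bst2, EAE 2 (102 normalised CPM) lay below Healthy 2 (120), while for Ly6e the groups did not overlap.

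Of the regulators, 3 of 8 tested rose. Zbp1, a sensor of Z-form nucleic acid that can trigger cell death, had the largest change of the tested members, from 4.62, 7.52 and 1.44 CPM in Healthy to 176 and 73.3 in EAE (4.87 ± 0.31, adjusted p = 7.07e-06). The difference was 4.57 within set 1 and 4.86 within set 2 on the log2 scale. Xaf1 was at 22.0, 33.4 and 18.7 in Healthy and at 70.4 and 29.9 in EAE (0.97 ± 0.25, adjusted p = 0.019). Rtp4 rose by 1.49 ± 0.31, although EAE 2 (15.4 normalised CPM) lay below Healthy 1 (19.1). Isg15, a ubiquitin-like protein joined to other proteins, was at 97.1, 49.3 and 55.5 in Healthy and at 132 and 72.3 in EAE, with overlap (0.57 ± 0.26, adjusted p = 0.15). The feedback inhibitors of the pathway, Usp18 (0.49 ± 0.36) and Socs1 (0.12 ± 0.22), did not pass, nor did Parp14. Isg20 was lower in both EAE libraries (19.6 and 17.8 CPM) than in Healthy (27.7, 27.6 and 25.9) and did not pass either (-0.62 ± 0.24, adjusted p = 0.0908).

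Around these members, a list of 59 other genes of the pathway was counted. It held receptors, kinases, chemokines, antigen processing genes and further interferon-induced genes, such as Ifi204, Trim30a, Ifi27 and Ifit3b. In fibroblasts 43 could be tested, and 21 rose and 2 fell, where 10.5% of all genes rose and 11.1% fell. Ccl5, Cxcl9 and Cxcl10 were among the largest rises. Cxcl9 and Cxcl10, chemokines that draw T cells, rose by 4.03 ± 0.71 and 2.85 ± 0.54 on the log2 scale (adjusted p = 0.029 and 0.0263). Cxcl9 was at 46.5, 26.9 and 0.734 normalised CPM in Healthy and at 357 and 157 in EAE, with no overlap. Ccl5 had no UMI in Healthy and was at 58.7 and 15.1 normalised CPM in EAE. The genes that fell were Socs3 (-1.64 ± 0.34, adjusted p = 0.0112), an inhibitor of Janus kinase signals, and Ifngr1 (-0.78 ± 0.23, adjusted p = 0.0285), a chain of the interferon gamma receptor; its partner chain Ifngr2 rose (1.09 ± 0.22, adjusted p = 0.00515). Markers of other cell types were also summed in fibroblast-gated cells. Myeloid markers summed to 13.9, 18.4 and 23.1 CPM in Healthy and 26.4 and 31.2 in EAE. Endothelial markers were at 74.0, 58.5 and 93.7 against 152 and 173, and smooth muscle markers at 164, 86.0 and 48.3 against 495 and 483, while pericyte markers were lower in EAE (1577, 1305 and 1478 against 745 and 880). These 4 lists did not overlap between the groups. Lymphocyte markers overlapped, at 9.25, 1.67 and 2.16 against 9.03 and 5.15. Erythroid markers stood apart in EAE 1 (389, against 1.77 in EAE 2 and 33.5, 55.9 and 9.37 in Healthy), and osteoblast markers in Healthy 2 (4444, against 0.72 to 166 in the others). Their part in the results was not tested beyond the fit without immune marker UMIs, in which 20 members rose.

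Pericytes stood apart already in Healthy. The 42 genes took 1.02%, 1.20% and 1.00% of their UMIs in Healthy 1 to 3 (3, 8 and 6 cells), and 1.93% and 0.882% in EAE 1 and EAE 2 (15 and 25 cells). Smooth muscle cells were at 0.311%, 0.389% and 0.312% in Healthy and 0.276% and 0.471% in EAE. Ifitm3 was at 6171, 5106 and 4664 CPM in Healthy pericytes and at 1489, 1694 and 1417 in Healthy smooth muscle. Iigp1 was at 0, 533 and 377 CPM in Healthy pericytes, and at 1556 and 376 in EAE. For the test both classes were summed as mural cells. Of 12 members tested, Ifitm1 alone rose by edgeR's test (2.83 ± 0.37, adjusted p = 0.0023) and none fell. Of all genes, 0.751% rose and 0.0834% fell. Without Healthy 3, 2 members rose. The mix differed between the groups, since smooth muscle outnumbered pericytes in Healthy (67 to 17 cells) and in EAE 1, and pericytes outnumbered smooth muscle in EAE 2. In pericytes alone 1 of 9 members tested rose, where 3.56% of all genes did. In smooth muscle alone 0 of 4 rose, where 0% of all genes did by edgeR (0 members at an unadjusted p under 0.05). Ifitm1 was at 133, 94.1 and 71.6 CPM in smooth muscle of Healthy 1 to 3, and at 102 and 1075 in EAE 1 and EAE 2. The 5 smooth muscle cells of EAE 2 held pericyte markers at 13308 CPM, against 1867 to 4738 in the other libraries. The difference of the EAE effect between mural and fibroblast cells passed for 0 of 32 members by edgeR's quasi-likelihood test (4 at an unadjusted p under 0.05, 0 by DESeq2), where 0.908% of all genes were higher and 1.17% lower. The nearest was Iigp1 (-1.57 ± 0.52, adjusted p = 0.0967).

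Within the EAE libraries, classes were compared with fibroblasts of the same library. By edgeR's test mural cells had higher Tgtp2 (2.37 ± 0.59, adjusted p = 0.0025) and Ifi47 (1.28 ± 0.42, adjusted p = 0.0278) and lower Ly6e (-1.22 ± 0.43). These were 2 higher and 1 lower of 30 tested, where 5.79% of all genes were higher and 6.89% lower. The counts are near those backgrounds. In smooth muscle of EAE 1 and EAE 2, Tgtp2 had 1 and 0 UMIs and Ifi47 1 and 1, so most mural UMIs of both genes came from pericytes. Myeloid cells numbered at least 10 in EAE 1 alone. This lone sample is assumed to vary like the other groups, so the values describe EAE 1. The median log2 difference from fibroblasts was 0.98 over 30 members and -0.23 over all genes tested. The 7 myeloid cells of EAE 2, outside the test, held a share of 0.621% against 1.27% in EAE 1, and their IRGs summed to 28.2 CPM against 595. Irf8 was at 735 CPM in the myeloid cells of EAE 1, against 44.9 in fibroblasts (log2 difference 3.75 ± 0.56). Rsad2, which makes a chain-ending nucleotide against viruses, was at 168 against 12.4 (3.70 ± 0.81), and Isg15 at 682 against 132 (2.24 ± 0.46). Cd274, Rtp4, Irf7, Ifi35, Ly6e and Ifi47 were also higher in the myeloid cells of EAE 1, with log2 differences from 1.31 (Ifi47) to 3.70 (Cd274). Stat2 (1.76 ± 1.02) and Oasl2 (1.33 ± 0.57) lay in the same range. Rsad2, Isg15 and Ifi35 are thus members that did not pass in EAE fibroblasts. The IRGs Iigp1 (215 CPM) and Irgm1 (84.1) had negative log2 differences from fibroblasts (-0.86 ± 0.49 and -0.73 ± 0.54).

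Lymphocytes had a lower share of the set than fibroblasts, 0.357% in EAE 1 and 0.249% in EAE 2. Their membrane proteins summed to 1414 and 1806 CPM in EAE 1 and EAE 2, against 7036 and 4143 in fibroblasts. In EAE 1 transcription factors (578 against 227), GBPs (440 against 409) and regulators (629 against 545) were higher in lymphocytes. IRGs and antiviral effectors were lower in EAE 1, and in EAE 2 every role was lower. Of 30 members 8 were lower and 2 higher, where 22.8% of all genes were lower and 10.7% higher. These counts are to be read against those backgrounds. Ifitm1 was at 25.9 and 83.1 CPM in lymphocytes and at 1954 and 1101 in fibroblasts (-5.41 ± 0.56, adjusted p = 4.68e-12). Ifitm2 and Ifitm3 were lower by about the same amount as each other (-3.19 ± 0.48 and -3.18 ± 0.42), and Iigp1 was at 51.7 and 20.8 CPM (-3.12 ± 0.58). Oasl2 had no UMI in lymphocytes, at least 2.34-fold lower than in fibroblasts with 3 UMIs over both libraries as the limit. Irgm1, Gbp2 and Bst2 completed the lower genes. By DESeq2 11 in place of 22 differences passed over the 3 classes. Irf8 and Ly6e were higher (2.11 ± 0.52 and 1.22 ± 0.40). Irf8 was at 371 CPM in EAE 1 and 20.8 in EAE 2, and myeloid markers were at 2104 and 997 CPM in the same cells, and the part of these in the result was not tested. In EAE 2 the lymphocyte level lay below the 30.6 of fibroblasts.

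Fibroblast states, each gated by the marker genes that name it, differed in which interferon-induced genes they held. Each state with at least 10 cells in both EAE libraries was compared with the mean of the other states in the same libraries, over 32 members. The Osr2 Gfra1 state had 9 members lower and none higher, where 4.49% of all genes were lower and 5.23% higher. Zbp1 had 0 CPM in EAE 1 and 6.34 in EAE 2 in this state, against 176 and 73.3 in fibroblasts as a whole (-4.31 ± 0.75, adjusted p = 9.71e-06). Iigp1 was at 49.6 and 12.7 (-3.00 ± 0.66) and Ifitm1 at 215 and 329.9 (-2.05 ± 0.33). Irf8 had no UMI here, at least 2.8-fold lower than in all EAE fibroblasts. Ifi47, Oasl2, Bst2, Ly6e and Ifitm3 were the other lower members. The Inmt Cldn1 Aldh1a3 state was lower in 6 members (Iigp1, Igtp, Zbp1, Ly6e, Bst2 and Gbp2), where 2.95% of all genes were lower, with Iigp1 at 97.4 and 51.1 CPM (-1.44 ± 0.37).

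**Figure D4:**
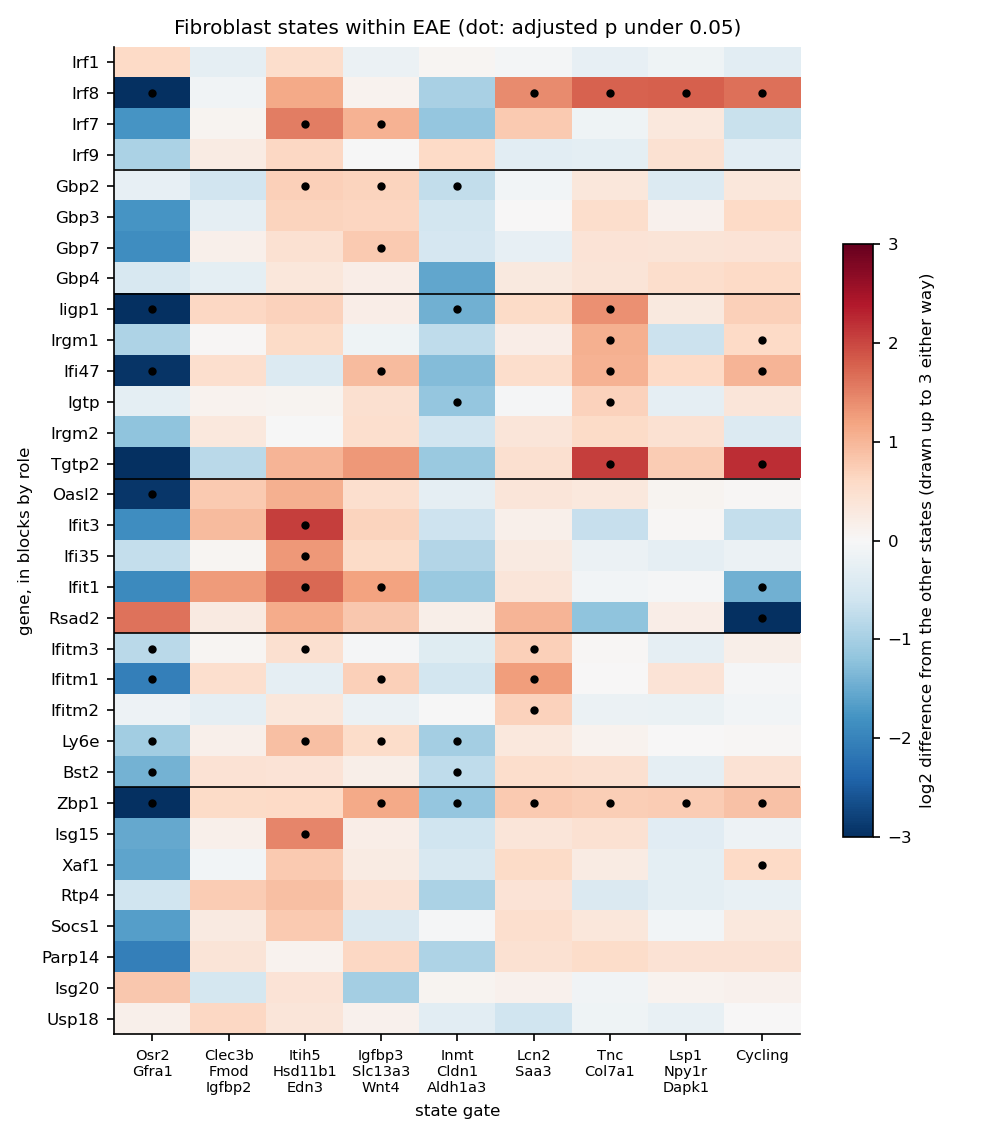
Log2 difference (colour, drawn up to 3 either way) of 32 genes (rows, in blocks by role) between each fibroblast state (columns) and the mean of the other states within the EAE libraries; a black dot marks an adjusted p under 0.05. The Osr2 Gfra1 column holds 9 dots on blue, the Itih5 Hsd11b1 Edn3 column 8 on red, among them Ifit1, Ifit3 and Isg15, and the Tnc Col7a1 column 7 on red, 5 of them IRGs.

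Other states had higher members, some of them shared between states. The Itih5 Hsd11b1 Edn3 state was higher in 8 members, where 4.02% of all genes were. It was led by Ifit3, at 160.1 and 96.2 CPM against 50.8 and 23.1 in fibroblasts as a whole (2.09 ± 0.33, adjusted p = 1.02e-05), Ifit1 (1.72 ± 0.46), Irf7 (1.53 ± 0.41) and Isg15 (1.46 ± 0.38), followed by Ifi35, Ly6e, Gbp2 and Ifitm3. The Tnc Col7a1 state, present in EAE alone (53 and 84 cells), was higher in 7 members, where 14.1% of all genes were higher. Of these, 5 were IRGs: Tgtp2 (2.07 ± 0.47), Iigp1 (595 and 249.6 CPM, 1.37 ± 0.24), Irgm1 (1.06 ± 0.20), Ifi47 (1.05 ± 0.27) and Igtp (0.68 ± 0.24). The others were Irf8 and Zbp1, and Ifit3 was at 34.9 and 13.7 CPM in this state. Cycling fibroblasts had Tgtp2 (2.20 ± 0.47), Irf8, Ifi47, Zbp1, Irgm1 and Xaf1 higher (6 members) and Rsad2 and Ifit1 (-1.43 ± 0.53) lower, where 16.0% of all genes were higher and 11.8% lower. The counts in the Tnc Col7a1 and cycling states are to be read against those high backgrounds.

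The Lcn2 Saa3 state, named by a pair of acute-phase genes, had the highest share of the set among states in both EAE libraries (1.13% and 0.820%). It was higher in 5 members, where 3.84% of all genes were: Irf8, Zbp1 and all 3 Ifitm genes. Ifitm1 was at 2923 and 2008 CPM (1.25 ± 0.21, adjusted p = 0.000716), Ifitm3 at 3773 and 2777, and Ifitm2 at 1959 and 1571. The Igfbp3 Slc13a3 Wnt4 state was higher in 8 members, where 7.09% of all genes were, led by Ifit1, Zbp1 and Irf7. The Lsp1 Npy1r Dapk1 state was higher in Irf8 and Zbp1 alone (2 of 32, where 4.58% of all genes were), and in the Clec3b Fmod Igfbp2 state none passed by edgeR's quasi-likelihood test (4 at an unadjusted p under 0.05, 0 by DESeq2), where 2.75% of all genes were higher. By DESeq2 31 in place of 53 differences passed over all states.

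Only 3 of the states had at least 10 cells in all 5 libraries, so EAE and Healthy could be compared inside them. In the Itih5 Hsd11b1 Edn3 state (68, 20 and 39 cells in Healthy, 36 and 69 in EAE) the share of the set was 0.304%, 0.251% and 0.262% in Healthy and 1.06% and 0.672% in EAE. The median cell held 0.246% to 0.270% in Healthy, 1.04% in EAE 1 and 0.397% in EAE 2, and the lower quartile of EAE 2 (0.258%) lay within the Healthy medians. There 7 of 10 members tested rose, where 4.87% of all genes did. Ifitm1 was at 117, 126 and 29.2 CPM in Healthy and at 1233 and 824 in EAE (3.86 ± 0.38, adjusted p = 3.30e-07). Isg15 was at 87.7, 42.1 and 36.4 in Healthy and at 312 and 183 in EAE (2.22 ± 0.42, adjusted p = 0.00145), and Ifitm3 at 906, 779 and 940.1 against 3874 and 2301 (1.85 ± 0.26). Iigp1, Bst2, Ly6e and Gbp2 were the others. Zbp1, outside this test, had no UMI in Healthy cells of the state and was at 176 and 78.2 CPM in EAE, at least 10.0-fold higher with 3 UMIs over the Healthy libraries as the limit. Both EAE libraries lay above every Healthy library for these 7 genes. With 1 library left out, their lowest log2 fold change was 1.40 (Ifitm3). All but Ifitm1 and Ly6e lost their call in at least 1 such fit.

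In the Osr2 Gfra1 state (57, 67 and 88 cells in Healthy, 20 and 41 in EAE) the share was 0.358%, 0.386% and 0.292% in Healthy and 0.359% and 0.318% in EAE, so that both EAE values lay inside the Healthy range. Only Ifitm1 rose, of 8 members tested (86.6, 108 and 52.6 CPM against 215 and 329.9; 1.97 ± 0.38, adjusted p = 0.00191), where 1.38% of all genes did, and it did not pass without Healthy 1, Healthy 3 or EAE 2. Zbp1 had no UMI in Healthy here and 1 in EAE. In the Clec3b Fmod Igfbp2 state (96, 43 and 67 cells in Healthy, 73 and 15 in EAE) Zbp1, Iigp1, Ifitm1 and Ly6e rose, 4 of 12 tested, where 1.75% of all genes did. Iigp1 was at 38.6, 66.9 and 36.4 in Healthy and at 492 and 54.5 in EAE, so EAE 2 was inside the Healthy range, and without EAE 1 none of the members passed there, and without Healthy 1 only 2 did. Isg15 in this state was at 142, 58.5 and 164 in Healthy and 148 and 90.8 in EAE.

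**Figure D5:**
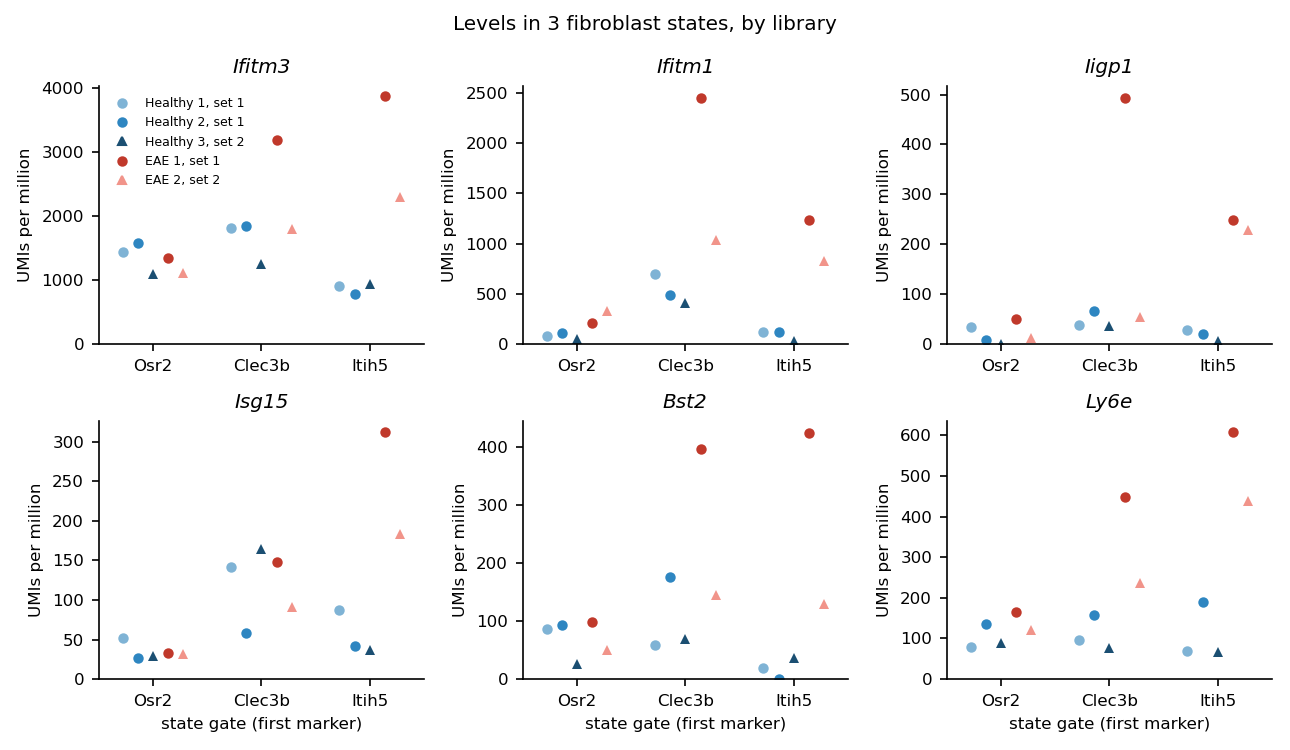
Level of 6 genes (CPM, vertical axes) in 3 fibroblast states (horizontal axes, named by their first marker), 1 point per library; circles are set 1 and triangles set 2. In the Itih5 state both EAE points lie above the Healthy points in all 6 panels, as for Isg15 (312 and 183 against 36.4 to 87.7), while in the Osr2 state the points of Isg15 lie between 27.0 and 52.0.

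The difference between states was tested directly, as the EAE effect in a state minus that in the other fibroblasts of the same libraries. In the Itih5 Hsd11b1 Edn3 state the effect was larger for 9 of 34 members, where 2.20% of all genes were higher. For Ifitm3 the difference was 1.50 ± 0.21 (adjusted p = 1.02e-09) and for Isg15 1.99 ± 0.43 (adjusted p = 0.000309), and both passed whichever library was left out. The other 7 (Bst2, Ifi35, Gbp2, Ly6e, Ifitm1, Ifitm2 and Irf7) did not pass in every such fit, and the count was 3 to 5 with any 1 library left out. In the Osr2 Gfra1 state the effect was smaller for Ifitm3 (-0.76 ± 0.20, adjusted p = 0.00485), 1 of 32 members where 2.44% of all genes were lower; the call was lost without Healthy 2, Healthy 3 or EAE 1, and 3 members passed without EAE 2. In the Clec3b Fmod Igfbp2 state the effect was smaller for Ifitm1 (-1.65 ± 0.26, adjusted p = 5.62e-06), 1 of 31 where 2.21% of all genes were lower, and it passed whichever library was left out, with 3 members past the threshold without Healthy 1. Ifitm1 was already at 412 to 696 CPM in Healthy cells of that state.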

How the data were processed

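The deposited tables hold UMI counts per gene and cell barcode for 5 libraries. Per the labels' protocols, reporter-positive spinal cord cells were sorted and made into 10x Genomics libraries, and the submitters' processing notes name Cell Ranger 2.1.1, Seurat 3 and the build mm10. The gene annotation release, the rule for calling cells and any removal of doublets were not stated (not given in the sources used here). No doublet caller was run here; the 20 barcodes that passed several class gates were set aside.

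The 27998 genes shared by all tables were used (at least 99.5% of UMIs in each library), and 0 columns of per-sample values were left unused. A barcode found in several of Healthy 1, Healthy 2 and EAE 1 was kept where its UMI total was highest. Barcodes with fewer than 200 genes or over 10% mitochondrial UMIs were removed. Total UMIs per library as deposited ranged from 1588693 to 10775024. A gate needed a minimum number of markers and a minimum share of the cell's UMIs: 3 markers and 1% for fibroblasts, 4 and 1% for smooth muscle, 4 and 0.4% for pericytes, 3 and 0.2% for myeloid cells, and 3 and 0.1% for lymphocytes. A fibroblast state needed 2 of its markers and 2 times the mean share of its marker set, and a cell that passed several states (587 cells) went to the highest ratio. These thresholds were set after the data were seen.

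UMIs were summed per library and gate. The sums were tested with edgeR 4.0.16 (R 4.3.3; robust quasi-likelihood fit, TMM factors, filterByExpr, Benjamini-Hochberg adjustment over all genes tested, threshold 0.05). EAE and Healthy were compared with set as a covariate, and gates within libraries with the library as a block. DESeq2 1.42.0 was an alternative, as were other scalings, filters and cell selections and the removal of each library in turn. Levels (CPM) are UMIs per 1000000 UMIs of the gate, and normalised CPM use TMM factors. A gate entered a fit with at least 10 cells (5 for pericytes or smooth muscle alone). The fits were tested on simulated data.

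The members, the other pathway genes and the markers were chosen with earlier results of these data known. In each role the 3 members with the highest mean CPM in EAE fibroblasts were given in full, as would be any member that fell or differed between mural cells and fibroblasts; other named members were chosen after their values were seen. The comparisons inside single states, their differences, and the fits of pericytes and smooth muscle alone were added after the data were seen. One gene of the pathway list is not reported here by name.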

Additional observations from a re-analysis of the deposited data

Results flagged for a closer look

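Each value here is the log2 change from Healthy to EAE in a state minus that in the other fibroblasts of the same libraries, and each was raised because edgeR's test of that difference passed at an adjusted p under 0.05. In the Itih5 Hsd11b1 Edn3 state the difference was 1.99 for Isg15, 1.50 for Ifitm3, 2.18 for Bst2, 2.15 for Ifi35, 1.58 for Gbp2, 1.41 for Ly6e, 1.32 for Ifitm1 and 0.89 for Ifitm2. For Irf7 it was 8.87, a fitted value that depends on a prior count because Healthy cells of the state held no Irf7 UMI; with 3 UMIs over the Healthy libraries as the limit, Irf7 was at least 7.33-fold higher in EAE cells of the state (76.5 CPM). Gbp2 and Ifi35 passed in 0 of the 5 fits that left out 1 library, Irf7 in 1, Ifitm1, Ifitm2 and Bst2 in 2 each, Ly6e in 3, and Isg15 and Ifitm3 in 5. In the Osr2 Gfra1 state the difference was -0.76 for Ifitm3, which passed in 2 of those fits. In the Clec3b Fmod Igfbp2 state it was -1.65 for Ifitm1, which passed in 5.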

How the results depend on the processing

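In fibroblasts 21 members passed. The count was 13 with all barcodes as deposited, 7 without the term for set and 10 with cells thinned to 1000 UMIs, and ranged from 8 to 28 with 1 library left out (8 without EAE 1; 28 without Healthy 1, of which 27 rose and Irf1 fell). It was 28 with no filter on low counts, where higher calls made up 59.5% of all calls, and 18 by DESeq2. In mural cells the count of 1 became 3 with no filter and 0 in smooth muscle alone, and was 1 to 2 with 1 library left out. The difference between mural cells and fibroblasts passed for 1 member under library totals and 1 as deposited, against 0, and for 0 to 1 with 1 library left out (1 without Healthy 1). By DESeq2, 11 differences between classes and 31 between states passed, against 22 and 53. With 1 library left out, the counts inside states were 0 to 1 (Osr2 Gfra1), 0 to 5 (Clec3b Fmod Igfbp2) and 4 to 8 (Itih5 Hsd11b1 Edn3), and the counts of differences from other fibroblasts 0 to 3, 1 to 3 and 3 to 5. The share of the members differed by 0.344 percentage points between the group means, by 0.214 with all barcodes as deposited, where Healthy 1 and Healthy 2 lay above EAE 2, by 0.101 without the Ifitm genes and Ly6e, and by 0.144 to 0.544 with 1 library left out. Ifit3 (log2) changed sign to -0.10 without the term for set and ranged from -0.0187 (without Healthy 3) to 0.34 (without EAE 1) with 1 library left out. Ifitm2 changed sign to -0.0236 without the term for set and to -0.05 without Healthy 1, and ranged from -0.11 (without EAE 1) to 0.14 (without EAE 2). Neither gene passed in any of these fits. Of the other values for named members, 252 kept direction and side of the threshold, 27 lost the threshold and 6 gained it. The causes were not tested. Leaving out an EAE library in the comparisons within EAE leaves no residual degrees of freedom, so these were not run as tests. No paired analysis was possible because the labels of the groups share only the replicate number 2. In mural cells 12 members passed the filter on low counts; the others were not tested there.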
